A study of Mus musculus with 2 samples.

Results

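The ionotropic glutamate receptor subunits examined here were 10 genes of the 47069 in the count table: the kainate receptor genes Grik1, Grik2, Grik3, Grik4 and Grik5, the AMPA receptor genes Gria1, Gria2, Gria3 and Gria4, and the NMDA receptor gene Grin1. They were selected on a list of symbols drawn up with the levels of these libraries and their RNA-Best to RNAlater ratios in view. The ratios below therefore describe the genes and test nothing. Bulk RNA-seq of poly(A) RNA was performed on 2 samples of dissociated pituitary cells from female C57BL/6 mice that were 10 to 12 weeks old and cycling at random. Each sample held 500000 to 700000 cells pooled from 5 glands, digested with collagenase and dispersed with pancreatine. One sample went straight into RNA-Best, a buffer designed to stabilize cells for later single-cell assays, and the other into RNAlater, an established RNA stabilizer that served as the reference. Each group had 1 library made from pooled animals, so no difference has a replicate check, no test was possible, and the stabilizer, the pooled animals and the library preparation cannot be told apart.

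Ionotropic glutamate receptors are cation channels of 4 subunits that open when glutamate, or glycine at some NMDA receptor subunits, binds outside the cell. Kainate, AMPA and NMDA receptors are named after the agonists that distinguish them, and subunits assemble within a family. They are best known for fast excitation in the brain, and pituitary endocrine cells, glia and the nerve endings of the posterior lobe also carry some of them.

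Total counts were 53915047 in the RNA-Best library and 44917492 in the RNAlater library. Levels are given as CPM, counts scaled to a library total of 1000000, on which scale 3 counts were worth 0.0556 CPM for RNA-Best and 0.0668 for RNAlater. Endocrine identity was plain in both libraries, where the 7 pituitary hormone genes examined ranged from 31.6 to 235654 CPM. Genes whose CPM averaged 1 or more over the libraries, 16504 in number, are called tested below, and the median of their log2 ratios, RNA-Best over RNAlater, was -0.18. That centre depends on the scaling, since it was -0.0137 with edgeR TMM factors, -0.0030 with DESeq2 size factors and -0.055 when the 2 most abundant genes, which held 29.7% and 23.2% of the counts, were left out of the total.

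The 10 genes are close relatives, so it mattered whether reads could tell them apart. All 10 encode the same 9-residue motif close to the channel gate of the channel. The coding bases of this motif with 6 codons on each side, read from the GRCm38 (mm10) genome, are shown for the 3 kainate genes with the most counts and for the AMPA genes with the highest and the lowest ratio. Capitals mark G or C at the last base of a codon, where most changes leave the amino acid as it is, and the sequences run 5′ to 3′ on the coding strand.
Grik2: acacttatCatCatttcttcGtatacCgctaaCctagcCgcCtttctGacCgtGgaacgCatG
Grik3: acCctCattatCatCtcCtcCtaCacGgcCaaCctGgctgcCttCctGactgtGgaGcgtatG
Grik5: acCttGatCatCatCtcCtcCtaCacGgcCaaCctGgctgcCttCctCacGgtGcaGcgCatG
Gria2: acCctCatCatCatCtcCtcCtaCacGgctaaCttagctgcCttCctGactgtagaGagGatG
Gria3: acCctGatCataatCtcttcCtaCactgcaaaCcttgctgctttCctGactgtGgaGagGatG

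These stretches lie at chr10:49240672-49240734 (minus strand) in Grik2, chr4:125694024-125694086 (plus strand) in Grik3, chr7:25015901-25015963 (minus strand) in Grik5, chr3:80702551-80702613 (minus strand) in Gria2 and chrX:41620840-41620902 (plus strand) in Gria3, each within 1 exon. Grik2 and Grik3 differed at 15 of the 63 bases, all 15 of them the last base of a codon. Grik3 and Grik5 differed at 7 bases and shared a run of 38 bases, the longest run in any of the 45 pairs of members. The reads were 51 bases long, so no read within this stretch could match 2 members over its whole length. Of the 21 codons, the number that ended in G or C was 12 in Grik2, 17 in Grik3, 20 in Grik5, 16 in Gria2 and 13 in Gria3.

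Over the longest annotated transcripts, runs of 51 bases that also occur in another gene were few in 9 of the 10 members, at most 0.597% of the runs, in Grik2. In Gria2 they were 6 of 10321 runs, all shared with Gria3, the only sharing named between members. The longest transcript of Gria3 is noncoding and had 0 such runs, so that value does not cover its other transcripts. In Grin1 the shared runs were 816 of 4226 (19.3%), all shared with the antisense gene Grin1os. The strand setting of the counting is not given in the sources used here, so reads of Grin1 and Grin1os may not be separable there, and the counts of Grin1os itself were 52 with RNA-Best and 48.4 with RNAlater. Counts were whole numbers in both libraries for 7 members, and Grik3, Gria2 and Gria4 had fractional values.

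All 10 members passed the filter on low values. Of them, 8 were lower in RNA-Best than in RNAlater, although Gria2 turned slightly higher with TMM factors (0.02 in log2) and DESeq2 size factors (0.03), and 2, Grik1 and Grik2, were just above 0. Grik3 and Gria3 were at least 2-fold lower and none was at least 2-fold higher, where 4.99% of all genes tested (824 of 16504) were at least 2-fold lower and 0.273% (45) at least 2-fold higher. These members were chosen with this contrast in view, so nothing is read from that comparison. The nearest member outside the 2-fold bound was Grik5, at a log2 ratio of -0.73 with 0.5 CPM added to both values, followed by Grik4 at -0.71. Without that addition Grik4 was nearer, at -0.84, and with TMM factors Grik4 was at -0.57 and Grik5 at -0.56. The median log2 ratio of the members was -0.43, which is -0.26 relative to the median of all genes. In bulk RNA, fewer cells that express a gene and less of its RNA per cell cannot be told apart.

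**Figure D1:**
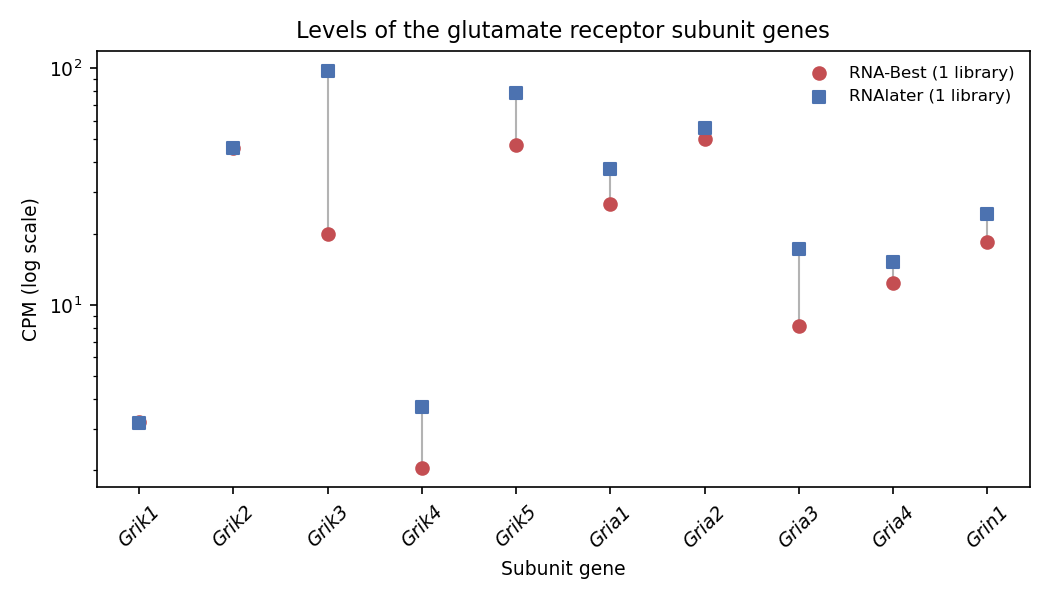
CPM (log scale) of the 10 subunit genes in the RNA-Best library (red circles) and the RNAlater library (blue squares), 1 library each, with a grey line joining the values of a gene. Grik3 shows the widest gap, 19.9 against 97.5 CPM, while the symbols of Grik1 and Grik2 nearly coincide.

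The kainate receptor family held both ends of the range. Grik1, Grik2 and Grik3 encode the low-affinity subunits, which can form channels on their own. Grik3 (chr4:125490700-125714173, plus strand, ENSMUSG00000001985.9) had 1071 counts in the RNA-Best library against 4378 in the reference, or 19.9 and 97.5 CPM. Its log2 ratio was -2.27 with 0.5 CPM added to both values, a level 4.81-fold lower in RNA-Best. From the rounded counts alone the fold was 4.91, with an exact conditional 95% interval of 4.59 to 5.25. Intervals here cover only the counting of reads taken as independent. PCR copies of reads are not independent molecules, so the intervals may be too narrow, and nothing measured the spread between samples. Grik3 was the member with the lowest ratio, and only 4 of the 16504 genes tested lay below it. Among the 10497 genes that averaged 10 CPM or more, 3 lay below it.

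Grik3 has a single annotated transcript of 8973 bases. Its introns hold the ferritin pseudogene Ftl2-ps, with 2739 counts in RNA-Best and 2338 in RNAlater, and the microRNA gene Mir692-2, with 93.7 and 93.2. Neither overlaps an exon of Grik3.

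Grik2 (chr10:49094833-49788766, minus strand), which encodes the kainate subunit most studied in the hippocampus, had 2476 counts with RNA-Best and 2054 with RNAlater. That is 45.9 and 45.7 CPM, a log2 ratio of 0.01 with an interval from -0.08 to 0.09 on the counts. Grik1 (chr16:87895900-88290265, minus strand) was present at a low level, with 173 and 143 counts or 3.21 and 3.18 CPM. The log2 ratio was also 0.01, with a wider interval of -0.32 to 0.34. With TMM factors both genes were higher in RNA-Best, by 0.16 in Grik1 and 0.18 in Grik2 on the log2 scale. The low-affinity subunits thus differed among themselves. Grik3 stood apart from Grik2 by a factor of 4.93 (interval 4.50 to 5.39), as the count ratio of Grik3 to Grik2 was 0.433 in RNA-Best and 2.13 in RNAlater. This ratio of ratios does not depend on the scaling of the libraries.

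Grik4 and Grik5 encode the high-affinity subunits, which need a low-affinity partner to form a working channel. Grik5 (chr7:25009849-25072346, minus strand) had 2548 and 3532 counts, which gave levels of 47.3 and 78.6 CPM and a log2 ratio of -0.73 (interval -0.81 to -0.66). Grik4 (chr9:42518135-42944493, minus strand) was far less abundant, with 111 and 166 counts or 2.06 and 3.70 CPM. The log2 ratio of Grik4 was -0.71 with 0.5 CPM added and -0.84 without, with an interval of -1.20 to -0.49. Both high-affinity genes had the lower value in RNA-Best, and the intervals of their ratios overlapped.

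Summed over the 5 kainate genes, the level was 118 CPM with RNA-Best and 229 CPM with RNAlater, which gave a log2 ratio of -0.95 (interval -0.996 to -0.906). Without Grik3 the sums were 98.5 and 131 CPM and the log2 ratio was -0.41. The sum of the low-affinity genes had a log2 ratio of -1.08 and that of the high-affinity genes -0.73. Grik3 accounted for 42.6% of the kainate counts in RNAlater (Clopper-Pearson 95% interval 41.7 to 43.6) and 16.8% in RNA-Best (15.9 to 17.7). The share of Grik2 moved the other way, from 19.99% in RNAlater to 38.8% in RNA-Best. Grik5 held 34.4% and 39.9%. The kainate gene with the most counts was therefore Grik3 in RNAlater and Grik5 in RNA-Best, where the share intervals of Grik5 and Grik2 overlapped. Per kilobase of the longest transcript the share of Grik3 was 29.7% in RNAlater and 11.1% in RNA-Best, and Grik5 was the largest in both libraries, with 52.9% and 58.3%.

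**Figure D2:**
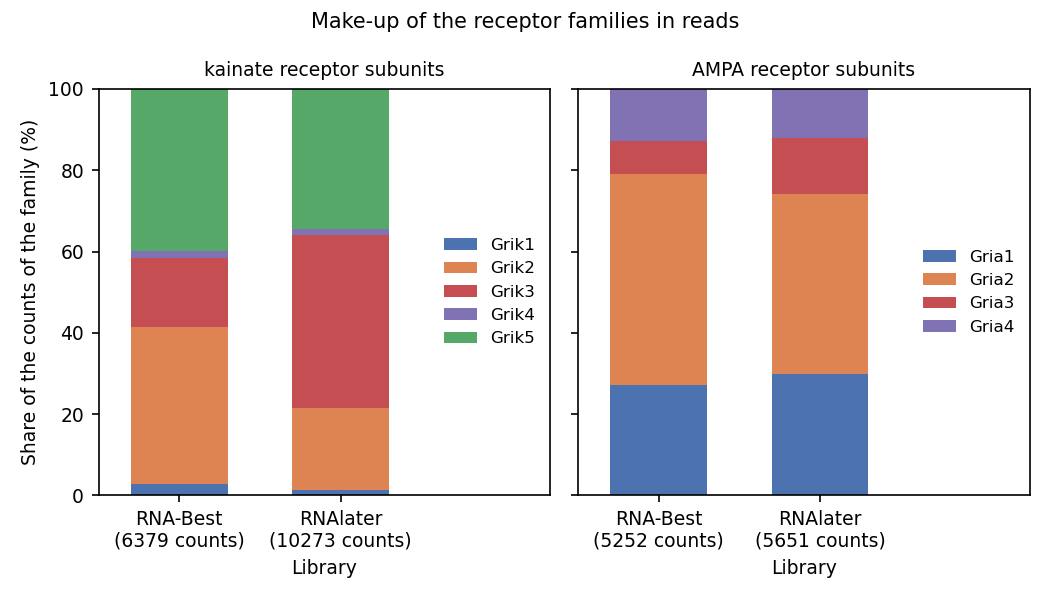
Share of the counts of each receptor family (%) held by each subunit gene, for the kainate genes (left) and the AMPA genes (right), with 1 library per bar and the counts of the family under it. Grik3 takes 16.8% of the kainate counts in RNA-Best and 42.6% in RNAlater, while the make-up of the AMPA genes differs less.

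The AMPA receptor genes spanned a narrower range. Gria2, whose edited subunit keeps calcium from passing through the channel, had 2714.75 estimated counts in RNA-Best and 2513.5 in RNAlater, or 50.4 and 56.0 CPM. The log2 ratio was -0.15 (interval -0.23 to -0.07) and reached 0.02 with TMM factors and 0.03 with DESeq2 size factors. Gria1, a subunit of calcium-permeable and of mixed AMPA receptors, had 1432 and 1682 counts, or 26.6 and 37.4 CPM. That gave a log2 ratio of -0.49 (interval -0.60 to -0.39). Gria2 and Gria1 therefore lay on opposite sides of the median of the members.

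Gria3 (chrX:41400854-41678601, plus strand) had 437 counts with RNA-Best and 773 with RNAlater, or 8.11 and 17.2 CPM. Its log2 ratio was -1.04 with 0.5 CPM added, just past the 2-fold bound, and the interval on the counts, -1.26 to -0.92, held that bound. With TMM factors the log2 ratio was -0.88. Gria4 (chr9:4417896-4796234, minus strand) had 668.5 and 681.5 estimated counts, or 12.4 and 15.2 CPM, and a log2 ratio of -0.28 (interval -0.45 to -0.14). Gria3 was thus the AMPA gene that was lowest relative to RNAlater, and its count ratio to Gria2 was 0.161 in RNA-Best against 0.307 in RNAlater, a factor of 1.91 (interval 1.68 to 2.18).

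The summed AMPA level was 97.4 CPM with RNA-Best and 126 CPM with RNAlater, so that the log2 ratio was -0.37 (interval -0.42 to -0.31). Gria2 held the largest share of the AMPA counts in both libraries, 51.7% in RNA-Best and 44.5% in RNAlater. Gria1 followed with 27.3% and 29.8%. Gria3 held 8.32% in RNA-Best (interval 7.59 to 9.10) and 13.7% in RNAlater (12.8 to 14.6), and Gria4 12.7% and 12.1%. Gria4 had more counts than Gria3 in RNA-Best and fewer in RNAlater, where the intervals of their shares overlapped (11.2 to 12.9 for Gria4). Per kb of merged exons Gria4 held the larger share in both libraries, 18.9% against 7.89% in RNA-Best and 17.3% against 12.5% in RNAlater.

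Grin1 encodes the glycine-binding subunit that every NMDA receptor contains. There were 995 and 1082 counts in RNA-Best and RNAlater, or 18.5 and 24.1 CPM, with a log2 ratio of -0.38 (interval -0.51 to -0.26). Grin2a, which encodes a glutamate-binding partner of Grin1, had 7.63 and 14.5 CPM with a log2 ratio of -0.88. Grin3a, a glycine-binding modulatory subunit, had 1.82 and 3.41 CPM with a log2 ratio of -0.75. The other NMDA genes averaged below 1 CPM, with Grin2b at 12 and 9 counts, Grin2c at 6 and 12 and Grin3b at 12 and 23. Grin2d, at 43 and 51 counts, was just below that filter. The 7 NMDA genes summed to 29.3 and 44.1 CPM, which gave a log2 ratio of -0.58. Grid1, whose subunit acts mainly at synapse junctions rather than as a glutamate-gated channel, had 7.44 and 10.9 CPM with a log2 ratio of -0.53.

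**Figure D3:**
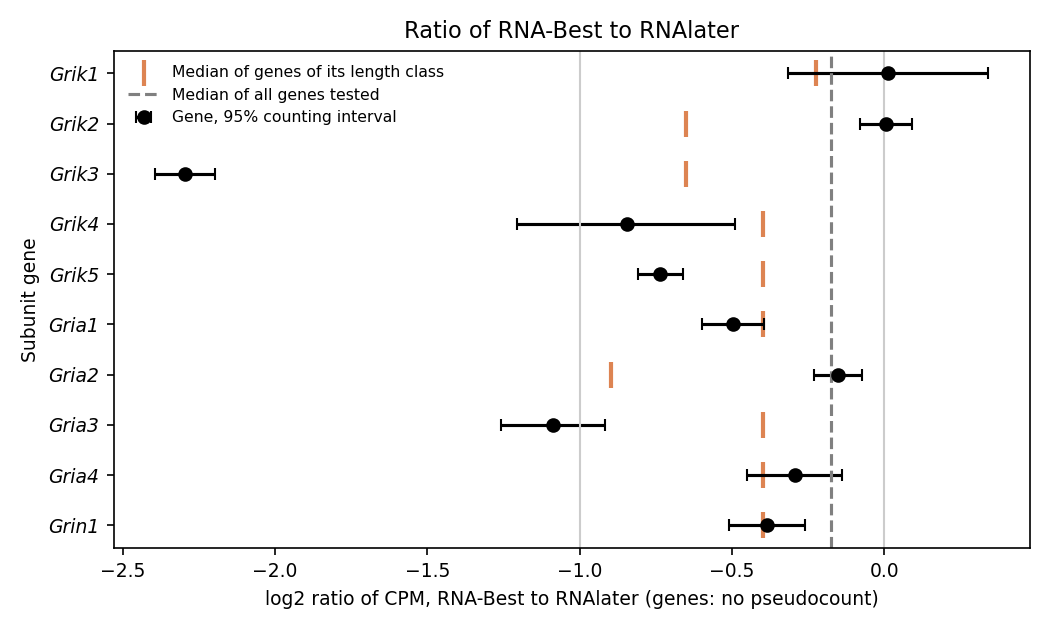
Log2 ratio of CPM in RNA-Best to RNAlater for each subunit gene without a pseudocount (black points, bars for the exact conditional 95% counting interval), with the median of genes of the same transcript length (orange), the median of all genes tested (dashed line) and grey lines at 0 and at 2-fold lower. The interval of Grik3 alone lies wholly beyond 2-fold, those of Grik1 and Grik2 hold 0, and Grik2 and Gria2 lie well above the median of genes of their length.

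Levels of different genes were compared per kilobase of the longest annotated transcript. In RNA-Best the highest was Grik5 at 11.6 CPM per kb, followed by Grik2 at 4.87, Gria2 at 4.86, Gria1 at 4.79 and Grin1 at 4.32 CPM per kb. The counting intervals of Grik2, Gria2 and Gria1 overlapped, as did those of Gria1 and Grin1. Below them were Gria4 at 2.28 and Grik3 at 2.21 CPM per kb, with overlapping intervals, then Gria3 at 1.56, Grik1 at 0.878 and Grik4 at 0.350. In RNAlater Grik5 was again the highest, at 19.4 CPM per kb, but Grik3 was next at 10.9. Gria1 at 6.75, Grin1 at 5.63, Gria2 at 5.40, Grik2 at 4.85, Gria3 at 3.31, Gria4 at 2.79, Grik1 at 0.871 and Grik4 at 0.628 CPM per kb followed. Among these neighbours the intervals overlapped only for Grin1 and Gria2.

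The per-length place of Grik3 thus differed between the libraries, being rank 7 in RNA-Best and rank 2 in RNAlater. With the merged exons of each gene as the length the ranks were 5 and 2, and with its median transcript 8 and 4. Grik5 kept rank 1 in both libraries under all 3 lengths. Several annotated transcripts of Grik5 are short, with a median of 880 bases, so its level per kilobase ranged from 9.14 to 53.7 CPM per kb in RNA-Best with the length chosen. The middle of the order was as sensitive. In RNA-Best, Grik2 had 17.6 and Gria2 14.1 CPM per kb of the median transcript, while Grin1 had 1.90 CPM per kb of merged exons and held rank 7, with Gria1 at rank 2.

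The ratio of all genes varied with transcript length, and the members were set beside genes of their own length class. The median log2 ratio was 0.28 over the 2089 genes of up to 1 kb, -0.40 over the 3463 genes of 4 to 6 kb, -0.65 over the 1757 genes of 6 to 10 kb and -0.90 over the 373 genes above 10 kb. Of the members, 5 lay below and 5 above the median of their class. Grik3 was -1.61 from its class, in which 0.0569% of the genes were lower. Grik2, with a transcript of 9427 bases in the same class, lay 0.66 above the median, with 95.3% of that class below it. Gria2, the longest member at 10371 bases, lay 0.75 above its class median.

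Among the other members, Gria3 differed by -0.64 from its class, Grik5 by -0.33, Grik4 by -0.32 and Gria1 by -0.09. Grik1 lay 0.23 above, Gria4 0.12 above and Grin1 0.02 above the class median. The equal log2 ratio of Grik2 and Grik1, 0.01, thus stood at different distances from genes of their length, since Grik1 has a transcript of 3655 bases. These distances depended on the length used, and the longest transcript of Gria3 is noncoding. With merged exons as the length, Gria2 lay 0.49 above its class and Gria3 differed by -0.62, Grik1 lay 0.43 above, Grik5 differed by -0.46 and Grik4 by -0.45, while Grik3 differed by -1.84 and Grik2 lay 0.64 above.

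**Figure D4:**
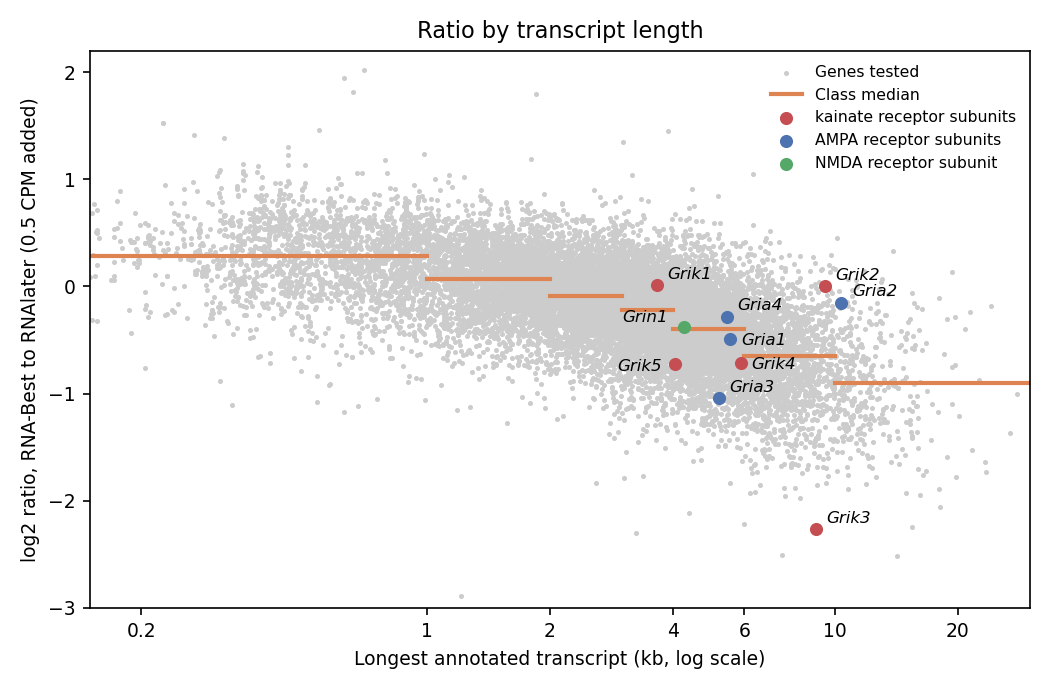
Log2 ratio of RNA-Best to RNAlater (0.5 CPM added) against the longest annotated transcript (kb, log scale) for tested genes (grey; 69 of 16443 lie outside the axes), with class medians in orange and the kainate (red), AMPA (blue) and NMDA (green) members labelled. The class medians descend from 0.28 to -0.90, Grik3 lies far below the genes of 6 to 10 kb, and Grik2 and Gria2 lie above the medians of their classes.

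The members also differed in base composition. Transcript GC content was 54.2% in Grik3, 61.7% in Grik5, 52.2% in Grik4 and 59.4% in Grin1, but 37.9% in Grik2, 36.8% in Gria2 and 39.8% in Gria3. In the coding sequence, the share of codons that end in G or C was 80.4% in Grik5, 76.1% in Grik3, 71.3% in Grin1, 70.6% in Grik4 and 63.9% in Gria1. It was lower in Grik1 (56.4%), Gria3 (49.1%), Grik2 (49.0%), Gria2 (48.4%) and Gria4 (47.1%). The log2 ratios of the first 5 genes ran from -2.27 to -0.38 and those of the other 5 from -1.04 to 0.01, so the ranges overlapped, with Gria3 the GC-poor member among the lower ratios. The pore-coding bases printed above show the same contrast between Grik2 and Grik3. They do not show it between Gria2 and Grik3, with 16 and 17 of 21 codons ending in G or C.

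Set beside genes of the same length class and the same quintile of transcript GC content, a comparison chosen after seeing the data, Grik3 differed by -1.38, and none of the 268 genes of that group was lower. Gria3 differed by -0.83, with 1.14% of its group of 874 genes below it. That group was set by its noncoding longest transcript, while the GC content of its coding sequence was 45.5%. Grik2 and Gria2 remained above their groups, by 0.40 and 0.37, while Grik5 moved to -0.09 and Grik4 to -0.16. Grin1, also rich in GC, rose as Grik5 and Grik4 did, from 0.02 to 0.26 above, and so lay farther from its group. When GC content was taken into account, the distance from comparable genes was larger for Gria3 and Grin1 and smaller for every other member. The part of length or GC content in any ratio was not tested.

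Proteins that accompany these receptors were examined as lists. Of 79 glutamate genes, members included, 64 passed the filter and 60 of these (93.8%) were lower in RNA-Best, beside 67.0% of all genes tested. With TMM factors 52 of the 64 (81.3%) were lower, beside 51.3% of all genes. All genes are not matched to these lists in transcript length. The median longest transcript of a list ran from 2.79 kb (glutamate and glutamine enzymes) to 6.68 kb (other ionotropic receptor subunits). It was 3.92 kb for auxiliary subunits and 3.93 kb for glutamate transporters. With the library total, genes of 2 to 3 kb as a whole had a median log2 ratio of -0.09 and those of 3 to 4 kb -0.22. Genes of 4 to 6 kb had a median of -0.40 and an upper quartile of -0.17. For genes of 6 to 10 kb the median was -0.65. The part of length in these counts was not tested. Among the 64, 5 were at least 2-fold lower and none at least 2-fold higher, beside 4.99% and 0.273% of all genes tested. With TMM factors 2 of the 64 were at least 2-fold lower, a share near that of all genes (2.63%). Among auxiliary subunits, which set the gating and delivery of the channels, 10 of 11 genes tested were lower, with a median log2 ratio of -0.44. Cacng4, a transmembrane AMPA receptor regulatory protein, had 1.47 and 3.52 CPM, and its log2 ratio of -1.03 was -0.89 with TMM factors. Cnih2, a cornichon that binds AMPA receptors, was the highest at 0.09.

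Scaffold and trafficking proteins, which anchor receptors at the membrane, were lower for 18 of 18 genes tested, or 16 of 18 with TMM factors, with a median of -0.45. Shank1 had 15.9 and 46.4 CPM and so a log2 ratio of -1.52. Shank3 had 19.2 and 43.2 CPM, and its log2 ratio of -1.15 was -0.98 with TMM factors. Pick1, which binds the tail of Gria2, was the highest in that list at -0.14. All 3 adenosine deaminase genes of the RNA editing list were lower, from Adar at -0.70 to Adarb2 at -0.38.

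The metabotropic receptor genes, which encode G-protein-coupled glutamate receptors, were mostly near the floor. Only Grm5 (7.49 and 8.62 CPM, log2 ratio -0.19) and Grm7 (1.17 and 1.69 CPM, -0.39) of the 8 passed the filter, and Grm6 had no count in either library, which allows up to 0.0556 CPM for RNA-Best and 0.0668 for RNAlater. Among glutamate transporters 8 of 9 genes tested were lower, or 6 of 9 with TMM factors, from Slc1a4 at -0.77 to the vesicular transporter gene Slc17a7 at 0.20. All 7 genes of glutamate and glutamine enzymes were lower, or 4 of 7 with TMM factors, from Glul (glutamine synthetase) at -0.53 to Glud1 (glutamate dehydrogenase) at -0.05, which was 0.12 with TMM factors. Beside the median of -0.43 over the members, those of the transporters and the enzymes were -0.66 and -0.21.

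**Figure D5:**
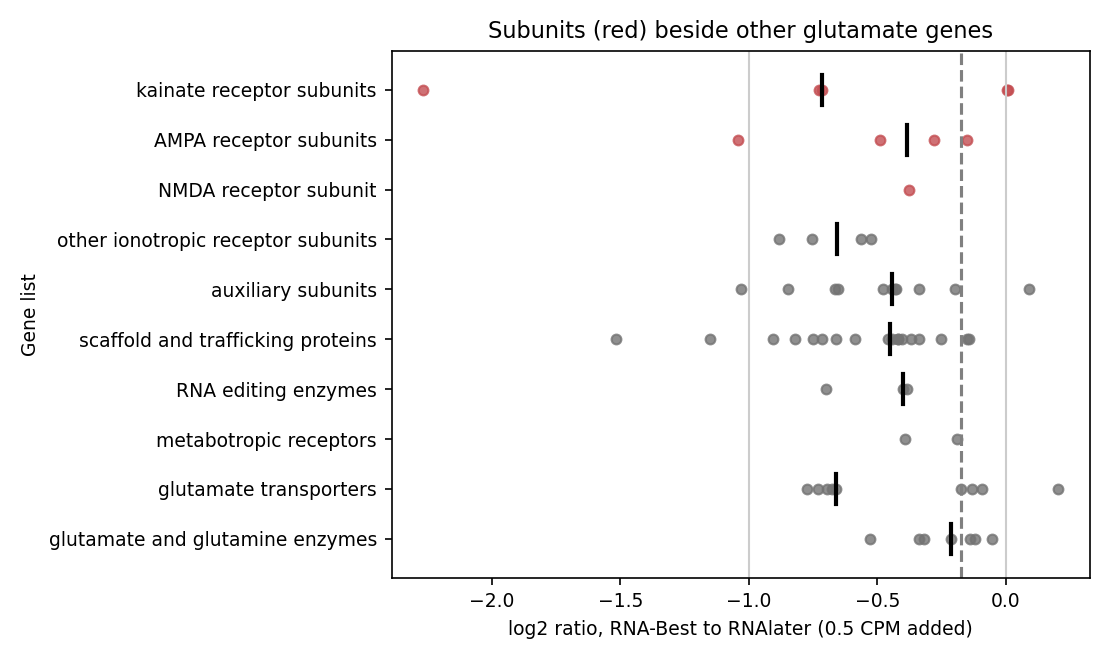
Log2 ratio of RNA-Best to RNAlater (0.5 CPM added) for genes tested in each glutamate list, 1 point per gene, with the 10 members in red, other genes in grey, a black bar at the median of lists with more than 2 genes, the dashed line at the median of all genes tested and grey lines at 0 and at 2-fold lower. Grik3 is the lowest point, at -2.27, followed by Shank1 at -1.52.

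Markers of cell types that could carry these receptors differed between the libraries as well. The 8 posterior lobe and astroglia markers were all lower in RNA-Best, with a summed level of 74.2 against 126 CPM, and 3 of 4 neuronal markers tested were lower, with sums of 16.9 and 23.8 CPM. Neurod6, a marker of cortical neurons, had no count in either library, and Slc32a1, which marks inhibitory neurons, had 15 and 12 counts. The oligodendrocyte markers summed to 74.0 and 101 CPM, of which Mbp alone had 63.3 and 83.8. Of those tested 3 of 3 were lower, although the interval of Mag, -0.73 to 0.35, held 0. Mog had 4 and 20 counts, and Sox10 had 16 and 25. The stem and folliculostellate markers summed to 179 and 289 CPM (6 of 6 lower), the endothelial markers to 358 and 685 CPM (7 of 7, or 6 of 7 with TMM factors), the pericyte and fibroblast markers to 547 and 721 CPM (6 of 6, or 5 of 6 with DESeq2 size factors), the melanotrope markers to 204 and 201 CPM (3 of 4, or 1 of 4 with TMM factors) and the macrophage markers to 150 and 140 CPM (3 of 5). None of the 7 hormone genes was lower, and their median log2 ratio was 0.45. Of all genes tested 67.0% were lower, or 51.3% with TMM factors. The lists also differed in length, with a median longest transcript of 0.895 kb for the hormone genes. Those of the other marker lists ran from 1.23 kb (macrophages) to 5.02 kb (pericytes and fibroblasts). For all genes the median log2 ratio was 0.28 up to 1 kb and 0.07 at 1 to 2 kb, with the library total. That median was -0.09 at 2 to 3 kb, -0.22 at 3 to 4 kb and -0.40 at 4 to 6 kb. List medians were -0.84 for posterior lobe and astroglia (2.82 kb), -0.61 for neurons (3.57 kb) and -0.40 for oligodendrocytes (4.70 kb). Stem and folliculostellate cells had -0.56 (2.16 kb), endothelium -0.97 (3.52 kb) and pericytes and fibroblasts -0.75 (5.02 kb). The melanotrope median was -0.12 (4.08 kb) and that of macrophages -0.20 (1.23 kb). The part of these cell types in the ratios of the receptor genes was not tested.

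The genes closest to Grik5, the most abundant member by mean CPM, in log2 mean CPM and log2 ratio were Arid4b at 46.7 CPM in RNA-Best and 77.4 in RNAlater, Gramd1b at 47.8 and 80.2, and Flii at 46.1 and 77.2. The genes nearest to Grik3, looked up after its values were seen, were the basement membrane gene Hspg2 with a log2 ratio of -2.52, the coregulator gene Zmiz1 with -1.88 and the protease gene Adamts4 with -2.12. Distances in that plane were 0.0213 to 0.0324 for the neighbours of Grik5 and 0.252 to 0.448 for those of Grik3.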

How the data were processed

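The authors deposited 1 table of estimated counts per gene for 2 pituitary libraries. The submitters' processing notes name STAR 2.5.1b, featureCounts 1.5.0-p1 and the mm10 build. Of the values above 0, 35.4% in RNA-Best and 34.9% in RNAlater were not whole, so some reads were divided between features. For its cell line libraries the study names the same tool versions with GENCODE M8. The release used for the pituitary libraries, the option behind the fractions and the strand setting are not given in the sources used here. Gene names, lengths and sequences came from GENCODE M21 on GRCm38, with version suffixes ignored. Of 47069 identifiers 46488 (98.8%) matched, and 7 of the 10 members had the same version. Per-length values therefore rest on that annotation and not on the transcripts expressed.

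Counts were divided by the library total and expressed as CPM. Log2 ratios used 0.5 CPM added to both values and were taken for genes averaging 1 CPM or more, and the addition understates the ratio of weakly expressed genes. Exact conditional binomial intervals at the 95% level used counts rounded to whole numbers and no pseudocount. A count of 0 allows up to 3 counts. With 1 library per group the linear model of the study could not be applied. edgeR 4.0.16 and DESeq2 1.42.0 gave scaling factors only, and other pseudocounts, filters and lengths were tried. Steps were tested on simulated data.

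Members, gene lists and the naming rule were chosen with earlier results of these data known. The genes named were the members, the other ionotropic receptor genes (1 of which is not reported here), the ends of each glutamate list and its genes past 2-fold, and the 3 genes nearest to the most abundant member. Ftl2-ps, Mir692-2, Grin1os, Mbp, Mag, markers near the floor and the genes nearest to Grik3 were named after their values were seen. The lists were auxiliary subunits, scaffold and trafficking proteins, RNA editing enzymes, metabotropic receptors, glutamate transporters and glutamate and glutamine enzymes, and markers of 9 kinds of cell.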

Additional observations from a re-analysis of the deposited data

How the results depend on the processing

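No paired analysis was possible because there was only 1 library for each stabilizer, and for that reason no library could be left out. The scaling moved most values together. With TMM factors, the total without the 2 most abundant genes and DESeq2 size factors, the median log2 ratio of all genes was -0.014, -0.055 and -0.0030, that of the members -0.26, -0.31 and -0.25, that of the summed kainate level -0.78, -0.82 and -0.76 and that of the summed AMPA level -0.19, -0.24 and -0.18. Relative to all genes the members stayed at -0.26 to -0.25 under the 4 scalings. Members at least 2-fold lower were 1, Grik3, under each of these scalings and with 1 CPM added, since Gria3 left the bound. The log2 ratio of Gria3 was -0.88, -0.93 and -0.86 under these scalings and -0.9999 with 1 CPM added. Why the scaling factors departed from the library total was not tested. With these scalings, 434 (TMM), 581 (without the top 2) and 419 (DESeq2) genes were at least 2-fold lower, and 110, 104 and 118 at least 2-fold higher. Those higher were 5.18% of all genes past 2-fold with the library total, 20.2% with TMM factors, 15.2% without the top 2 and 21.97% with DESeq2 size factors. The share of Grik3 in the kainate counts was 11.1% in RNA-Best and 29.7% in RNAlater per kb of the longest transcript, and 14.1% and 35.5% per kb of merged exons. The log2 ratio of Grik3 lay between -2.27 and -2.08 under the 4 scalings. The direction of Gria2 depended on the scaling. Depth limited Grik1, Grik4 and the weak NMDA genes most. The classes by length and GC content together and the counts of the gene lists under other scalings were chosen after seeing the data.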
